A study of Rattus norvegicus with 32 samples.

Results

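The genes described here encode the oxidative phosphorylation machinery of the mitochondrion, measured in the mammary gland of virgin rats over the 4-day estrous cycle. They were chosen by name, as genes whose single symbol on the array started with Nduf, Sdh, Uqcr, Cox4, Cox5, Cox6, Cox7, Cox8 or Atp5, with Cox7a1 left out, and whose intensity was 10 or more on every array used. A probe set is the group of short oligonucleotides that reads 1 transcript, and where a gene had several, the brightest by its mean on the log2 scale was taken. Of 89 symbols that matched, 85 passed, out of 11211 genes with a single symbol and a probe set that passed. By name, 42 of the 85 belong to complex I, 8 to complex II, 7 to complex III, 12 to complex IV and 16 to complex V. In role, 73 are subunits, 10 are assembly factors, 1 is an inhibitor (Atp5if1) and 1 is a pseudogene symbol (Cox6c-ps1). Ndufa4, counted here with complex I by its name, is known to sit in complex IV. Only Cox8b, Cox6a2, Cox4i2 and Cox7b2 matched by name without passing, and 7 probe sets that carry 2 or more symbols were left out. The median over rats of a member's intensity lay between 20.5 and 7728.

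Each of 32 Sprague Dawley rats gave the RNA of 1 Affymetrix Rat 230 2.0 array, and each rat was killed at its own hour, so that no time point had a replicate. The rats were untreated adult virgin females with regular cycles, and estrus fell on day 2 by the study's count. Hours run from midnight at the start of day 1, and 31 arrays were used. They come from 8 rats of day 1, killed between 7 and 17.6 h, 8 of day 2, between 31.6 and 43 h, 8 of day 3, between 57 and 67.1 h, and 7 of day 4, between 79.3 and 88.1 h. The array of 40 h was discarded by the study and is not used. All rats were sampled in daytime, so that a night value is not among the data, and each rat stands for 1 hour of 1 cycle. The sources differ on which glands were taken and how the RNA was kept, but both say that lymph nodes were removed. The tissue is a whole gland, a mix of fat cells, epithelium, vessels and, in these rats, an unequal amount of skeletal muscle. In such bulk RNA, fewer cells of a type and less RNA per cell cannot be told apart.

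The array medians lay between 49.9 and 54.7, so that all arrays had a similar overall brightness. Muscle RNA differed far more. Acta1, the actin of skeletal muscle fibres, ranged between 40.8 and 15148 over the rats, and Ckm, muscle creatine kinase, between 4.64 and 7491. A muscle score was computed for each rat as the mean over 23 skeletal muscle genes of the log2 intensity relative to the mean of the rats. It ran over 6.74 log2 units, with its lowest value, -3.90, at 82.5 h and its highest, 2.85, at 13.2 h. Of its 23 genes, 16 came from a list of fast fibre genes and 1 from a list of slow fibre genes. Summed intensities ran between 2132 and 75082 over 17 fast fibre genes and between 102 and 2017 over 8 slow fibre genes. Markers of the gland itself were present in all rats, with summed intensities of 14109 to 27513 over 12 luminal epithelial genes and of 57541 to 98999 over 11 adipocyte genes. Of 6 brown fat genes, Ucp1, the defining one, stayed between 4.43 and 6.61, and Dio2 and Zic1 were also under 10 in every rat. Elovl3 was at 10 or more in 1 rat and Prdm16 in 29, with 8.92 to 26.8, while Cidea, a lipid droplet protein, lay between 244.3 and 714.1.

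Oxidative phosphorylation is the last stage of respiration. Complex I oxidises NADH and complex II (succinate dehydrogenase) oxidises succinate, both pass electrons to ubiquinone, complex III passes them to cytochrome c, and complex IV (cytochrome c oxidase) passes them to oxygen. Complexes I, III and IV pump protons across the inner membrane, and complex V (ATP synthase) lets the protons back and makes ATP. The genes measured here are those of the nucleus, whose products join a smaller set of subunits encoded by mitochondrial DNA. Several complex IV subunits come in tissue forms: Cox6a2 and Cox8b are made in heart and skeletal muscle, while Cox6a1 and Cox8a are made in most other tissues. The virgin mammary gland is rich in white fat, whose cells hold fewer mitochondria than brown fat or oxidative muscle.

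Transcription of these nuclear genes is known to involve the factors NRF1, GABPA (also called NRF2), YY1 and the estrogen-related receptors (ERR). Promoters were taken from RefSeq (GRCr8), as 250 bases before and 50 after each start, and 78 of the 85 members matched. The letters searched, on both strands, were GCGCATGCG for NRF1, CCGGAAGT for GABPA, AAGATGGCG for YY1 and CAAGGTCA for ERR. The NRF1 letters read on both strands overlap in 1 run of 10 bases. NRF1 letters stood in 7 members' promoters, 8.97% of those matched, beside 1.66% of all 27457 promoters. GABPA letters stood in 8 (10.3% beside 4.01%), YY1 letters in 11 (14.1% beside 1.93%) and ERR letters in 3 (3.85% beside 1.48%). Any of the 4 stood in 27 members' promoters, 34.6% beside 8.57% of all. The NRF1 and GABPA letters always lay before the start, while the YY1 letters lay after it in 9 of 11 members. A match is a description of the letters and not a site. The promoters below have a match wholly before the start and within the 150 bases printed. For NRF1 (5 members to choose from) and GABPA (7), the member that varied most closely with the others over the rats was taken. For YY1 and for ERR only 1 member had such a match. Each stretch printed is 150 bases that end at the base before the start, on the minus strand, with the matching letters in capitals. They come from Atp5po (chr11:44657484-44657633), a stalk subunit of ATP synthase, Uqcrq (chr10:38089979-38090128), a small subunit of complex III, Atp5pf (chr11:37375102-37375251), another stalk subunit, and Atp5mc3 (chr3:79220665-79220814), which encodes the c subunit of the rotating ring.
Atp5po, NRF1 letters: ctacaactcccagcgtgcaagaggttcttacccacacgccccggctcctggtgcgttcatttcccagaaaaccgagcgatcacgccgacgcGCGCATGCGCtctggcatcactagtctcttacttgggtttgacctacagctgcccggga
Uqcrq, GABPA letters: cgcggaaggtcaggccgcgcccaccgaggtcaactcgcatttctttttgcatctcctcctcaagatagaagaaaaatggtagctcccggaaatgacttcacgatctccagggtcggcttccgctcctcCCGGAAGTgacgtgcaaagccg
Atp5pf, YY1 letters: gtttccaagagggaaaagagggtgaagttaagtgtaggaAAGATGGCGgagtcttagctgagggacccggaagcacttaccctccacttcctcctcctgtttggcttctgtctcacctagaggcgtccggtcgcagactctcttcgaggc
Atp5mc3, ERR letters on the other strand: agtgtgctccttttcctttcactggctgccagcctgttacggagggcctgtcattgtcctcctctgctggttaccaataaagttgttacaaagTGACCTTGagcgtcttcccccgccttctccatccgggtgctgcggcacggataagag

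The members varied little over the cycle. The highest rat stood above the lowest by a median of 1.62-fold, and 74 of the 85 members spanned less than 2-fold. The narrowest range was that of Cox4i1, the regulatory subunit 4 of complex IV, with 6912 to 8601, or 1.24-fold. The widest was that of Cox6b2, a form of subunit 6B known mainly from testis, with 38.3 to 177.6, or 4.64-fold. The mean of the 85 members on the log2 scale, relative to the mean of the 31 rats, had its lowest value, median and highest value at -0.21, -0.11 and 0.06 on day 1, -0.22, 0.03 and 0.20 on day 2, -0.25, 0.03 and 0.22 on day 3, and -0.02, 0.00 and 0.13 on day 4. The 4 days overlapped, and days 2 and 3 each held rats near both ends. The lowest rats were those of 64.2 h and 35.5 h and the highest those of 62.5 h and 58 h, so that high and low rats lay within hours of each other on day 3.

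**Figure D1:**
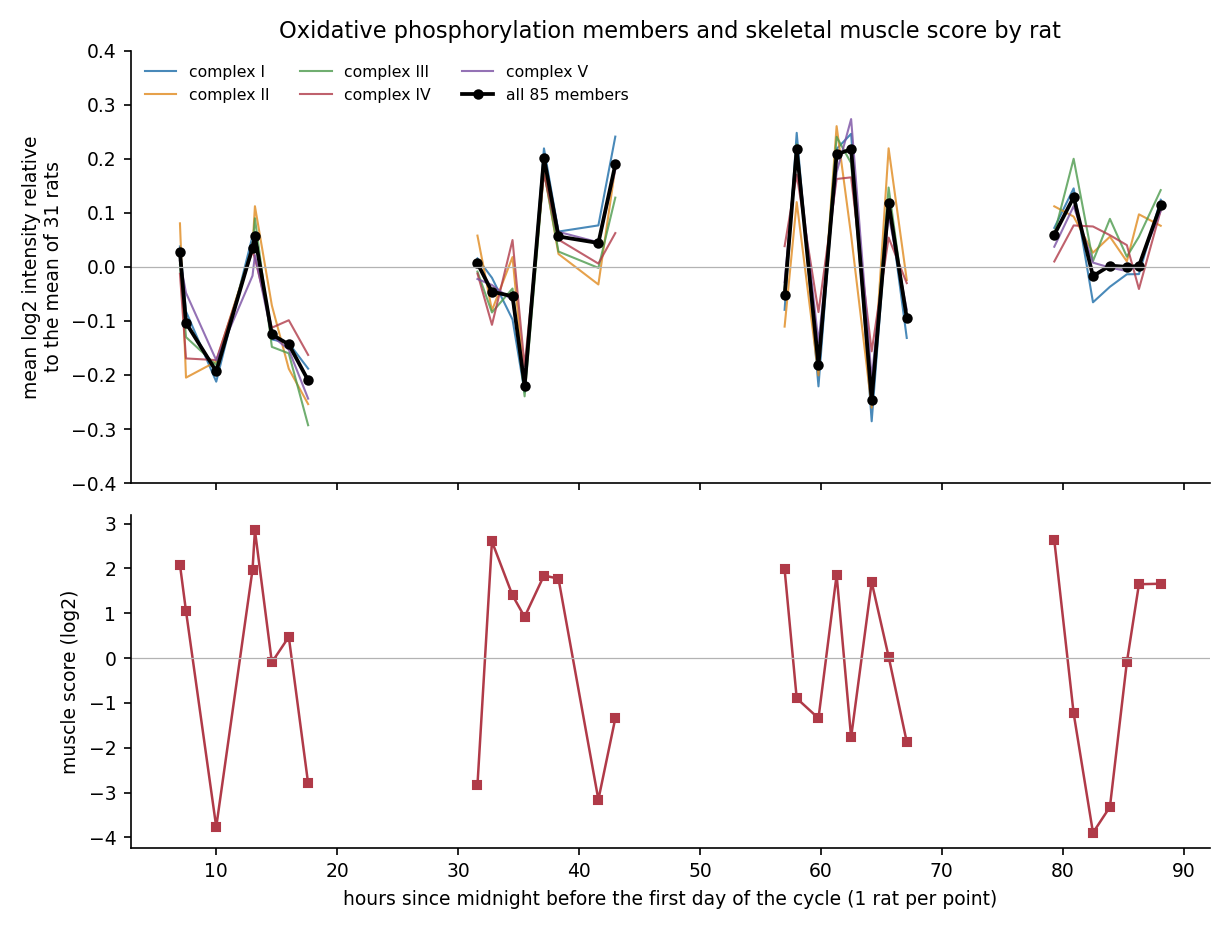
Mean log2 intensity of the 85 members (black) and of the members of each complex (coloured lines) relative to the mean of 31 rats, above, and the muscle score of the same rats (log2), below, against hours since midnight at the start of day 1, 1 rat per point. The members' mean stays between -0.25 and 0.22 while the muscle score runs between -3.90 and 2.85, and the 5 complexes follow each other from rat to rat.

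The first comparison asked whether the members changed between morning and evening. The log2 intensity of every probe set was modelled in limma as a level for each day plus 1 slope on clock hour common to the days, and a change was called at an adjusted p under 0.05 over all 21068 probe sets tested. A slope is given per 10 h, so that a value of 1 means a 2-fold rise in that time. None of the 85 members was called higher later in the day, beside 1.21% of all probe sets, and none was called lower, beside 0.75%. At an unadjusted p under 0.05, limma likewise gave 0 members. The median slope of the members was 0.01, beside 0.02 over all probe sets, with 49 positive and 36 negative. With 1 rat per time point, these p-values rest on the spread of rats around the fit, which also holds any departure from 1 common slope.

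The 4 members with the smallest p for clock hour show how small the slopes were. Cox6c, a small subunit of complex IV, had intensities of 5026, 6777 and 8034 (lowest, median and highest) in the 17 rats of the later part of the day, against 5904, 6887 and 7946 in the 14 rats of the earlier part. The ranges overlapped almost fully, and the slope was -0.14 (SE 0.08, adjusted p = 0.475). Ndufv3, a subunit of the NADH-oxidising arm of complex I, had 712.8, 913.1 and 1245 in the later rats, against 655.4, 759.7 and 1169 in the earlier rats. Its slope was the most positive of all members, 0.21 (SE 0.13, adjusted p = 0.510), with wide overlap. Ndufc1, a small membrane subunit of complex I, had the most negative slope, -0.17 (SE 0.12), and Atp5me, the e subunit of ATP synthase, had -0.12 (SE 0.08).

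All 95% intervals of these slopes lay within 1 log2 unit of 0. The members' whole range over the rats was itself small, with a median of 1.62-fold. For 84 of the 85 members the 95% interval of the slope lay within 0.5 log2 units of 0 on either side, and the exception was Cox6b2, with an upper bound of 0.57. The larger bound of the interval had a median of 0.24 over the members. Atp5f1b, the catalytic beta subunit of ATP synthase, had 3844, 5121 and 6607 in the later rats, against 4154, 4792 and 5607 in the earlier rats, and a slope of 0.05 (SE 0.09). Ndufs1, the largest subunit of the NADH arm, had a slope of -0.07 (SE 0.16), and Sdha, the flavoprotein of complex II, -0.08 (SE 0.10). Uqcrfs1, the Rieske iron-sulfur protein of complex III, had 0.01 (SE 0.07), and Cox4i1 had -0.03 (SE 0.05). In these 5 core subunits the slope was smaller than its SE, and Sdha had the largest in relation to it.

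With the muscle score added to the fit, clock hour at equal muscle score called none of the 85 members higher, beside 1.27% of all probe sets, and none lower, beside 0.684%. At an unadjusted p under 0.05 limma gave 0 members in this fit as well, and the median slope was 0.02. Ndufv3 had the smallest p in this fit, with a slope of 0.23 (SE 0.13, adjusted p = 0.463). The 95% interval lay within 0.5 log2 units of 0 for 83 of the 85.

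The second comparison asked whether the members differed between the days of the cycle at equal clock hour. For any difference between days, limma called none of the 85, beside 0.574% of all probe sets. At an unadjusted p under 0.05 it gave 4 of the 85 members, beside 2303 of all 21068 probe sets. The 4 members were Uqcrc2, a core subunit of complex III (adjusted p = 0.179), Cox6b2 (adjusted p = 0.322), Cox7c, a small membrane subunit of complex IV (adjusted p = 0.367), and Uqcrh, the hinge subunit of complex III (adjusted p = 0.406). At equal muscle score the same test called none, beside 0.579% of all probe sets. Again 4 members had an unadjusted p under 0.05, beside 2398 of all 21068 probe sets.

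Day 3 against day 1 gave the clearest values. None of the 85 members was called higher on day 3, beside 0.403% of all probe sets, and none was called lower, beside 0.721%. At an unadjusted p under 0.05, limma gave 13 members higher and 0 lower. The share of all probe sets at that unadjusted p is not given here, so that an excess cannot be read from this count. The difference was positive in 75 of the 85, with a median of 0.11, beside -0.0047 over all probe sets. The members vary together from rat to rat, as described further on, so that 75 positive differences are not 75 separate observations.

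Uqcrc2 had the smallest p of the members. Its intensity had its lowest, median and highest rat at 2463, 2829 and 3146 on day 1, 2680, 2908 and 3466 on day 2, 3023, 3213 and 3882 on day 3, and 3176, 3251 and 3581 on day 4. The lowest day 4 rat lay just above the highest day 1 rat, while days 3 and 1 overlapped. Day 3 minus day 1 was 0.22 (SE 0.06, adjusted p = 0.0915), the smallest adjusted p of any member in these limma comparisons of days and hours. A second probe set of Uqcrc2 that also passed gave 0.24 (SE 0.11). Cox7c had 2663, 3031 and 3296 on day 1, 2860, 3259 and 3350 on day 2, 3198, 3351 and 3645 on day 3, and 2930, 3258 and 3670 on day 4. Its days 3 and 1 overlapped in a narrow band, and the difference was 0.17 (SE 0.06, adjusted p = 0.159).

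Cox6b2 had the largest day differences, at low intensity. Its rats lay at 38.3, 64.4 and 89.4 on day 1, 42.01, 88.0 and 126.3 on day 2, 54.9, 96.5 and 177.6 on day 3, and 76.5, 98.6 and 112.2 on day 4. All days overlapped, and day 3 minus day 1 was 0.76 (SE 0.24, adjusted p = 0.121). A fit added after seeing the data took the beta-actin 3′ over 5′ ratio (described further on) as a covariate. In it limma called Cox6b2 (0.83, adjusted p = 0.0288) and Uqcrc2 (0.23, adjusted p = 0.0486) higher on day 3. The share of all probe sets called higher in that fit is not given here, and without the ratio it was 0.403%. The ubiquitous form Cox6b1 gave 0.07 (SE 0.08) for day 3 minus day 1 without the ratio. Atp5mpl, a small membrane protein of ATP synthase, gave 0.22 (SE 0.08, adjusted p = 0.212).

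Markers of the cell types in the gland also moved between these days. Of 11 luminal epithelial genes tested, limma called 2 higher and 1 lower on day 3, and of 9 basal and myoepithelial genes 4 higher and 1 lower, while none of 11 adipocyte, 16 skeletal muscle or 7 lymphocyte genes was called. At an unadjusted p under 0.05 these gave 1 adipocyte and 1 muscle gene higher, and 4 lymphocyte genes higher and 1 lower. The summed intensity of the basal and myoepithelial genes lay between 10685 and 16326 on day 3, against 6965 and 11073 on day 1, and that of 12 luminal genes between 15463 and 27513 on day 3, against 16517 and 23000 on day 1. Over 10 lymphocyte genes it lay between 695 and 5152 on day 3, against 743 and 1171 on day 1. The muscle score had medians of 0.76, 1.16, -0.43 and -0.09 on days 1, 2, 3 and 4. The part of these shifts in the members' day differences was not tested beyond the fits with the scores as covariates.

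**Figure D2:**
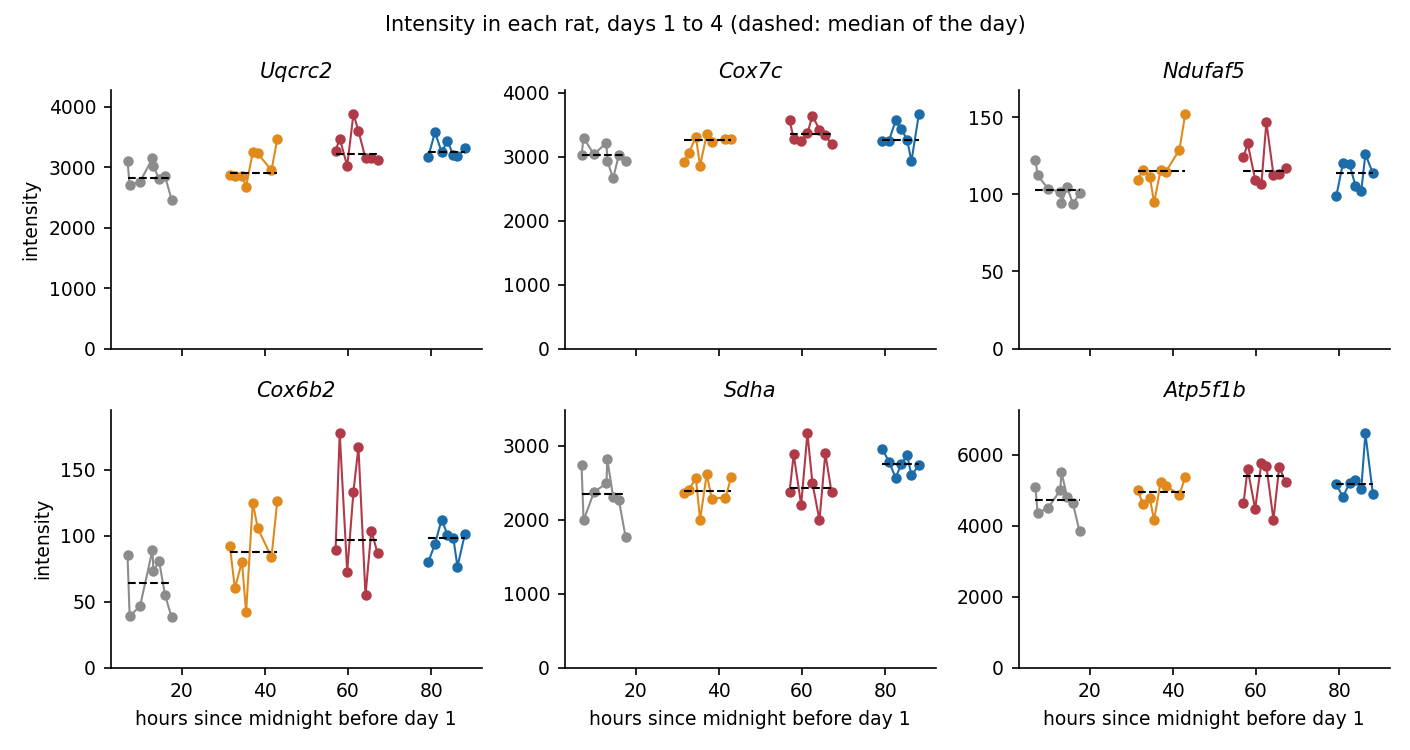
Intensity (linear scale from 0) of Uqcrc2, Cox7c, Ndufaf5, Cox6b2, Sdha and Atp5f1b in each of 31 rats against hours since midnight at the start of day 1, coloured by day, with a dashed line at each day's median. For Uqcrc2 the day medians are 2829, 2908, 3213 and 3251, and for Cox6b2 64.4, 88.0, 96.5 and 98.6. Days 1 and 4 of Uqcrc2 do not overlap, while the other days of Uqcrc2 and all days of Cox6b2 do.

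The members taken here as core subunits of each complex gave like values. Of 19 core members, limma called 0 in day 3 minus day 1 and gave 4 at an unadjusted p under 0.05, all higher, and the difference was positive in 17. Sdhb, the iron-sulfur protein of complex II, gave 0.19 (SE 0.08, adjusted p = 0.282), and Atp5f1a gave 0.18 (SE 0.12, adjusted p = 0.504). Ndufv1, which binds NADH, had 1279, 1518 and 1697 on day 1, 1375, 1596 and 1775 on day 2, 1274, 1686 and 1997 on day 3, and 1472, 1574 and 2043 on day 4, with all days overlapping. Its difference was 0.14 (SE 0.09), and that of Uqcrc1, the partner of Uqcrc2 in the matrix arm of complex III, was 0.09 (SE 0.11). Cox4i1 gave -0.03 (SE 0.05) and Cox5a -0.07 (SE 0.17), both within 1 SE of 0. The probe set used for Cox5a was dim, with a median of 36.0, and a bright one that carries Cox5a and another symbol, with a median of 5065, gave 0.17 (SE 0.07) in the fit without the filter, where it was not called (adjusted p = 0.341).

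The differences of the other days from day 1 ran the same way and share the rats of day 1. In day 2 minus day 1, none of the 85 was called higher, beside 0.00475% of all probe sets, and none lower, beside 0%. With limma, 3 members had an unadjusted p under 0.05, all higher, 80 differences were positive and their median was 0.10, beside 0.01 over all probe sets. Ndufaf7, a methyltransferase needed to assemble complex I, had the smallest p, with 0.24 (SE 0.10, adjusted p = 0.847). In day 4 minus day 1, none was called higher, beside 0.00475%, and none lower, beside 0.019%. Here 10 members had an unadjusted p under 0.05 by limma, all higher, 78 were positive and the median was 0.12, beside 0.01 over all. For both pairs of days the share of all probe sets at that unadjusted p is not given here. Uqcrc2 gave 0.21 (SE 0.07, adjusted p = 0.424), and the complex II genes Sdhc, a membrane anchor, and Sdha gave 0.27 (SE 0.11, adjusted p = 0.626) and 0.24 (SE 0.09, adjusted p = 0.640).

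Sdha shows the size of these differences in single rats. It had 1764, 2342 and 2814 on day 1, 1999, 2382 and 2615 on day 2, 1991, 2434 and 3167 on day 3, and 2567, 2754 and 2955 on day 4. The days overlapped, and the lowest day 4 rat lay above the median of day 1. By complex, the median of day 4 minus day 1 was 0.11 for complex I, 0.16 for II, 0.18 for III, 0.11 for IV and 0.13 for V, and that of day 3 minus day 1 was 0.09, 0.12, 0.12, 0.09 and 0.14 in the same order. No complex ran against the others.

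Among the later days the members hardly differed. In day 3 minus day 2, none of the 85 was called higher, beside 0.0665% of all probe sets, and none lower, beside 0.204%, with a median of 0.00 and, by limma, 2 higher and 1 lower at an unadjusted p under 0.05. Ndufa7, an accessory subunit of complex I, had -0.22 (SE 0.10, adjusted p = 0.343) there. In day 4 minus day 2, none was called higher, beside 0.0285%, and none lower, beside 0.0142%, with a median of 0.04 and 1 member each way at an unadjusted p under 0.05 by limma. These were Sdha, with 0.20 (SE 0.09), and Ndufaf4, an assembly factor of complex I, with -0.27 (SE 0.13). In day 4 minus day 3, none was called higher, beside 0%, and none lower, beside 0%, and limma gave 0 members at an unadjusted p under 0.05, with a median of 0.02.

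**Figure D3:**
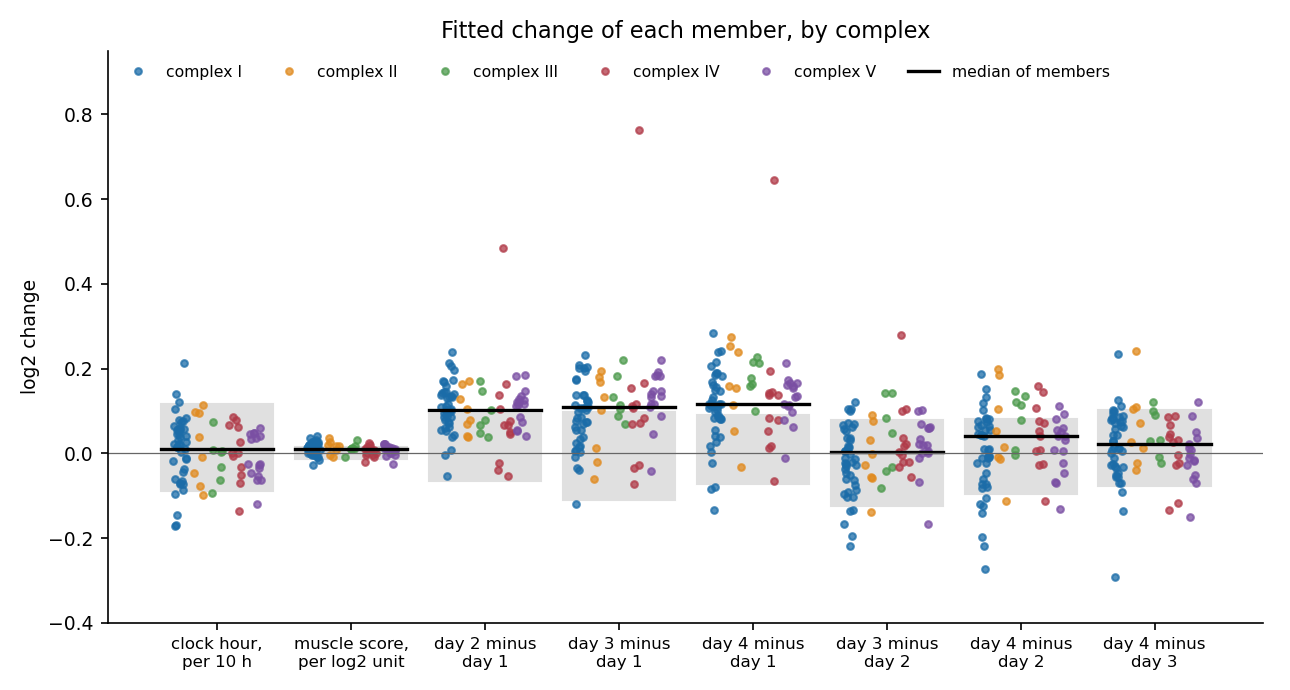
Fitted log2 change of each of the 85 members (points, coloured by complex) in the fits on clock hour (per 10 h), muscle score (per log2 unit) and the 6 pairs of days, with the median of the members as a black line and the middle 50% of all probe sets as a grey band. The medians lie at 0.10, 0.11 and 0.12 for days 2, 3 and 4 minus day 1 and between 0.00 and 0.04 among the later days, and the single high point is Cox6b2, at 0.49, 0.76 and 0.65.

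The clock hour slope was also allowed to differ between days. None of the 85 was called, beside 0.00475% of all probe sets. At an unadjusted p under 0.05, limma gave 2 members, beside 749 of all 21068 probe sets. The 2 members were Ndufaf5 and Ndufaf4, both assembly factors of complex I. Within day 1 the slope was negative in 67 of the 85 members, with a median of -0.11 per 10 h. Within day 2 it was positive in 80, with a median of 0.19, and within day 3 it was negative in 73, with a median of -0.09. On day 4 it was negative in 49, with a median of -0.02. Since the members move together, each of these counts rests on 7 or 8 rats.

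The spline method of the study asks for any slow course over the 4 days. It gives, as rho, the share of a probe set's variance that a smooth curve keeps, and calls at a false discovery rate of 0.25. It called 3 of the 85 members, 3.53%, beside 9.05% of all probe sets. Leaving out 1 rat gave between 1 and 7 members, with 1 without the rat of 16, 43, 57, 59.8 or 83.9 h, 5 without that of 34.5, 79.3 or 86.3 h, 6 without that of 7.5 h and 7 without that of 38.3 or 41.6 h. They were Uqcrc2 (rho 0.57, adjusted p = 0.0669), Ndufaf5 (rho 0.50, adjusted p = 0.135) and Cox7c (rho 0.49, adjusted p = 0.154). The median rho of the members was 0.24, beside 0.25 over all probe sets. Ndufaf5, a hydroxylase that acts on a complex I subunit during assembly, had 93.7, 102.6 and 122.4 on day 1, 94.7, 114.9 and 152.0 on day 2, 106.5, 115.0 and 146.7 on day 3, and 98.7, 113.5 and 126.0 on day 4. Its days overlapped throughout.

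Muscle content was the third question, because muscle fibres hold many mitochondria and the muscle score varied so widely. None of the 85 members was called higher with the muscle score at equal day and hour, beside 0.612% of all probe sets, and none lower, beside 0.00949%. With limma, 1 member had an unadjusted p under 0.05. It was Ndufs7, an iron-sulfur subunit next to the ubiquinone site of complex I, with 0.04 per log2 unit of the score (SE 0.02, adjusted p = 0.851). The slope was positive in 65 of the 85, with a median of 0.01 per unit, beside 0.00 over all probe sets. Over the whole range of the score the median amounts to 0.07 log2 units. Over that range the 95% interval lay within 0.5 log2 units of 0 for 79 of the 85 members and within 1 for all, with bounds between -0.60 and 0.57. Since the score rests mainly on fast fibre genes, these slopes describe dependence on fast fibre RNA more than on slow fibre RNA.

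The muscle forms of complex IV behaved otherwise. Cox6a2 and Cox8b are not members, since they fell under an intensity of 10 in some rats, and a fit without that filter was run for them. Cox6a2 ranged over the rats between 6.05, at 82.5 h, and 620.4, at 13.2 h, the rats with the lowest and the highest muscle score. Its intensity had its lowest, median and highest rat at 6.30, 127.3 and 620.4 on day 1, 6.14, 117.2 and 580.5 on day 2, 9.23, 40.3 and 237.6 on day 3, and 6.05, 57.2 and 442.0 on day 4. It rose by 1.04 per log2 unit of the score (SE 0.03, adjusted p = 2.34e-21). Cox8b ranged between 4.69 and 579.5 and rose by 0.96 per unit (SE 0.04, adjusted p = 3.48e-17). With slopes near 1 these transcripts followed the score about in proportion.

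Their ubiquitous counterparts did not follow it. Cox6a1 had 3938 in the rat of 13.2 h, with the highest muscle score, and 3769 in the rat of 82.5 h, with the lowest. Cox8a had 4451 in the rat of 13.2 h and 4680 in the rat of 82.5 h. The slopes were -0.01 (SE 0.01) for Cox6a1 and 0.01 (SE 0.02) for Cox8a, and each lay within 1 SE of 0. In the same pair of rats Atp5f1b had 5527 and 5216 and Atp5f1a, the alpha subunit of ATP synthase, had 2615 and 1979, while their slopes over all rats were 0.01 (SE 0.01) and 0.02 (SE 0.02). Cox4i2, a form of subunit 4 known from lung, stayed between 6.46 and 17.4, and Cox7b2 between 4.82 and 5.75, and neither was called (adjusted p = 0.944 for Cox4i2). Cox7a1, a muscle form that was left out by name, was dim at 13.1 to 27.5, with a slope of 0.03 (SE 0.02, adjusted p = 0.934). The 7 probe sets with several symbols had slopes between -0.01 and 0.02, and none was called.

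**Figure D4:**
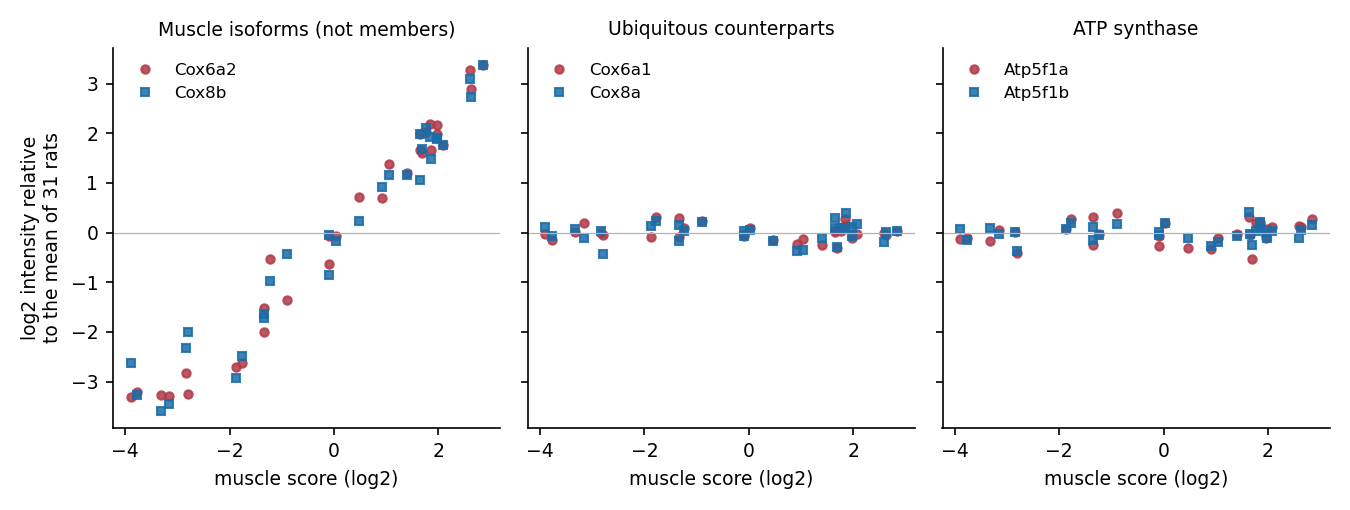
Log2 intensity relative to the mean of 31 rats against the muscle score (log2), 1 point per rat, for the muscle forms Cox6a2 and Cox8b (left), the ubiquitous forms Cox6a1 and Cox8a (middle) and the ATP synthase subunits Atp5f1a and Atp5f1b (right), on a shared vertical axis. The muscle forms rise by 1.04 and 0.96 per unit, while the slopes of the other 4 lie between -0.01 and 0.02.

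The choice of an intensity of 10 on every array set which forms of complex IV were members. Just inside it were Cox6c-ps1, with 15.7 to 32.1, Cox5a, with 20.97 to 66.1, and Cox6b2. Just outside were Cox8b, at 10 or more in 26 of 31 rats, Cox6a2, in 23, and Cox4i2, in 8.

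The members varied together. After the day and the clock hour were fitted out, the median correlation between pairs of members over the 31 rats was 0.65, and 91.5% of pairs were positive. The first principal component held 62.0% of the remaining variance. All members were read on the same 31 arrays with 1 normalization, and these correlations are given as a description. Of the 85, 50 had a correlation over 0.8 with the mean of the others. The closest were Ndufab1, the acyl carrier protein of mitochondria, with 0.95, Cox7b, a small subunit of complex IV, with 0.95, Atp5po with 0.95 and Uqcrq with 0.94. The promoters of Atp5po and Uqcrq are shown above because these genes were picked by this same correlation, so that their place here is no separate observation.

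Values in single rats show the size of this variation. Ndufab1 had 2015 at 35.5 h and 2156 at 64.2 h, and 3951 at 58 h and 4226 at 62.5 h. Uqcrq had 1445 and 1384 in the first pair of these rats and 2330 and 2464 in the second, and Atp5po had 2801 and 2517 and then 4166 and 4044. The rats of 58 h and 62.5 h have the highest members' mean, and those of 35.5 h and 64.2 h the lowest. These genes were picked for their closeness to the other members, so that their agreement in these rats was set by the choice. The mean of each complex correlated with that of the other complexes at 0.97 for complex I, 0.87 for II, 0.98 for III, 0.88 for IV and 0.98 for V.

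A few members stood apart. Cox5a, a subunit of complex IV, had a correlation of -0.48 with the mean of the others. Cox7a2l, which joins complexes III and IV in supercomplexes, had -0.47, and Cox6c-ps1 had -0.39. The bright probe set of Cox5a and another symbol, with 3851 to 6584, had -0.51. Cox7a2l had 3469 at 64.2 h and 3491 at 35.5 h, and 3028 at 58 h and 3111 at 62.5 h, the opposite of Ndufab1. Atp5if1, which inhibits ATP synthase when it runs backwards, had 0.08, Ndufaf4 had 0.11 and Cox7c had 0.32. Within complex IV the median pairwise correlation was 0.18, beside 0.69 in complex I and 0.73 in complex III.

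Since the members' mean moved with other measures of the sample, those measures were examined after the correlations had been seen. Over the 31 rats the mean correlated, at equal day and hour, at -0.67 with the luminal epithelial score, 0.54 with the adipocyte score, -0.60 with the log2 ratio of the 3′ to the 5′ probe set of beta-actin (a measure that rises where RNA or its labelled copy is short), and 0.17 with the muscle score. With the median intensity of the array it correlated at 0.45. For the other cell scores the correlation was 0.245 (basal and myoepithelial), 0.318 (brown fat, a score of 1 gene) and -0.102 (lymphocyte, a score of 2 genes). The scores are means of log2 intensities relative to the rats' mean, over 11 genes each for luminal epithelium (keratins, claudins and Epcam among them) and adipocytes (Adipoq, Fabp4 and Plin1 among them). The luminal score ran between -0.47 and 0.44, the adipocyte score between -0.55 and 0.69, and the beta-actin ratio between 2.63 and 4.29. The luminal and adipocyte scores correlated at -0.58 with each other, and the beta-actin ratio at 0.48 with the luminal and -0.43 with the adipocyte score, so that the 3 measures overlap.

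Each of the luminal, adipocyte and beta-actin measures was then put into the limma fit beside day and clock hour. These measures were taken up after their correlations had been seen in the same rats, and the members move together. The counts below therefore restate those correlations member by member and are no separate observation. With the luminal score, 55 of the 85 members fell, 64.7%, beside 10.9% of all probe sets, and none rose, beside 8.57%, with 1 member higher at an unadjusted p under 0.05. The median was -0.41 per log2 unit of the score, beside -0.02 over all probe sets. By complex, 32 of 42 members fell in complex I, 6 of 8 in II, 4 of 7 in III, 5 of 12 in IV and 8 of 16 in V. Ndufb3, an accessory subunit of complex I, fell by 0.89 per unit (SE 0.14, adjusted p = 8.29e-05), Ndufs1 by 0.98 (SE 0.19, adjusted p = 0.00052), Sdhc by 0.66 (SE 0.13, adjusted p = 0.000732) and Uqcr10, a small subunit of complex III, by 0.56 (SE 0.11, adjusted p = 0.000743). Cox6b2 had the largest slope, -1.11 (SE 0.36, adjusted p = 0.0276). Ndufs1 had 1235 in the rat of 79.3 h, with the lowest luminal score, and 732.7 in the rat of 59.8 h, with the highest. The count rested in part on single rats, with 32, 30 and 35 members lower without the rats of 35.5 h, 59.8 h and 61.3 h. With each array centred on its own median, 32 members fell, beside 8.28% of all probe sets.

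With the adipocyte score, 25 of the 85 members rose, 29.4%, beside 11.8% of all probe sets, and 1 fell, beside 6.47%. The median was 0.23 per unit. Sdhaf2, which helps attach the flavin to Sdha, rose by 0.84 (SE 0.08, adjusted p = 4.78e-08), Ndufb3 by 0.68 (SE 0.11, adjusted p = 4.27e-05), Sdha by 0.49 (SE 0.08, adjusted p = 5.91e-05) and Sdhc by 0.52 (SE 0.10, adjusted p = 0.000335). In complex II 5 of 8 members rose, against 9 of 42 in complex I, 4 of 7 in III, 4 of 12 in IV and 3 of 16 in V. The difference between complexes was not tested. The 1 member that fell was Atp5if1, with -0.31 (SE 0.10, adjusted p = 0.035), and it was no longer called without any 1 of 6 rats. Without the rat of 62.5 h, 40 members rose.

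With the beta-actin ratio, 38 of the 85 members fell, 44.7%, beside 8.12% of all probe sets, and none rose, beside 6.12%, with 1 member higher at an unadjusted p under 0.05. The median was -0.47 per log2 unit of the ratio. Ndufb6, an accessory subunit of complex I, fell by 1.01 (SE 0.18, adjusted p = 0.000495), Ndufa13, also known as Grim19, by 0.75 (SE 0.15, adjusted p = 0.00175), Ndufaf3, an assembly factor, by 0.65 (SE 0.13, adjusted p = 0.00203) and Ndufs1 by 1.14 (SE 0.24, adjusted p = 0.00273). By complex, 22 members fell in I, 4 in II, 3 in III, 4 in IV and 5 in V. Without the rats of 35.5 h, 58 h or 64.2 h the count was 13, 20 or 15.

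With all 3 measures in 1 limma fit, none of the 85 members fell with the luminal score, beside 0.0854% of all probe sets, 2 rose with the adipocyte score (Sdha and Sdhaf2), beside 3.84%, and 1 fell with the beta-actin ratio (Ndufb6), beside 2.06%. At an unadjusted p under 0.05, 21 members fell with the luminal score in this fit. The part that each of them has in the shared variation of the members was not tested. After all 3 were fitted out together with day and hour, the median pairwise correlation of the members was 0.54, and the first component held 53.8% of the variance. Cox7c, Ndufaf5 and Ndufaf4 had slopes close to 0 on the luminal score, at 0.01 (SE 0.10), -0.01 (SE 0.14) and 0.01 (SE 0.21). Cox7c and Ndufaf5 are also the members that the spline method called beside Uqcrc2.

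The assembly factors, which help build a complex without staying in it, were split. With the luminal score, 5 of the 10 fell: Ndufaf1, Ndufaf3 and Ndufaf8 of complex I and Sdhaf1 and Sdhaf2 of complex II. Sdhaf1, needed for the iron-sulfur clusters of Sdhb, fell by 0.78 (SE 0.16, adjusted p = 0.00085). Ndufaf1, a core factor of the membrane arm of complex I, fell by 0.74 (SE 0.25, adjusted p = 0.0363). Ndufaf4, Ndufaf5, Ndufaf7, Sdhaf3 and Sdhaf4 did not pass, with slopes between -0.22 and 0.01, and Sdhaf3 gave -0.06 (SE 0.11). By limma, none of the 10 was called with clock hour or in a pair of days, with 0 at an unadjusted p under 0.05 for clock hour and 1 each in day 2 minus day 1, day 3 minus day 1 and day 4 minus day 2.

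**Figure D5:**
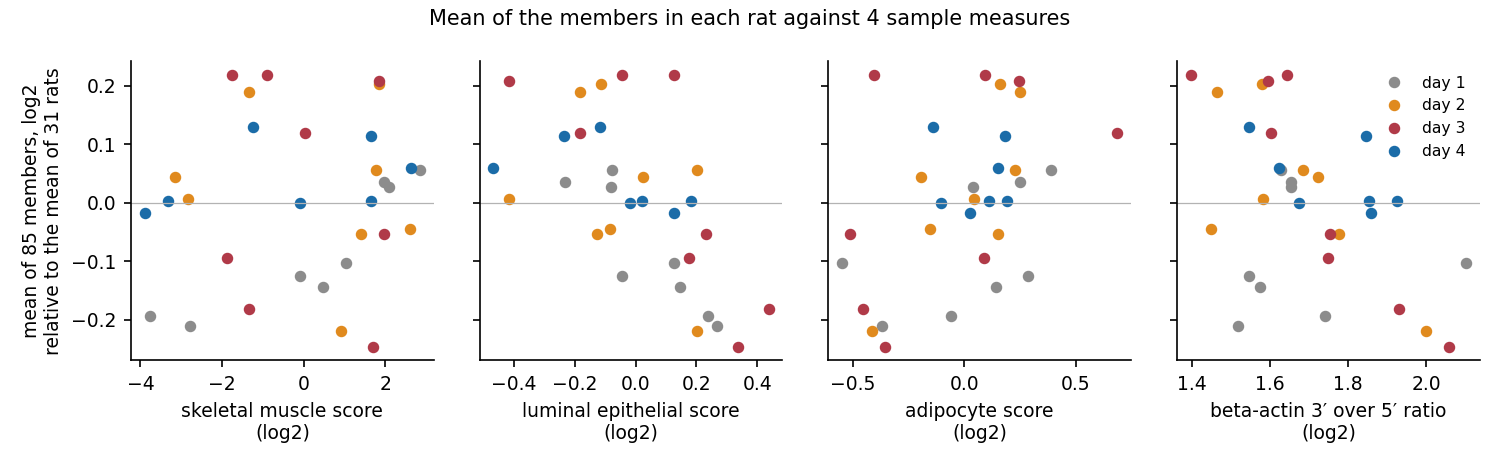
Mean log2 intensity of the 85 members in each rat, relative to the mean of 31 rats, against the muscle, luminal epithelial and adipocyte scores and the beta-actin 3′ over 5′ ratio (all log2), 1 point per rat, coloured by day. At equal day and hour the correlations are 0.17, -0.67, 0.54 and -0.60 in the same order.

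The same shared variation ran through other mitochondrial genes. At equal day and hour the members' mean correlated at 0.94 with the mean of 13 electron carrier genes, at 0.88 with that of 73 genes of the mitochondrial ribosome, at 0.85 with that of 14 genes of the citrate cycle and pyruvate dehydrogenase, and at 0.84 with that of 31 other assembly factors. The same arrays give both sides of each correlation. With clock hour, limma called 0 genes in these 4 lists, and at an unadjusted p under 0.05 it gave 1 citrate cycle gene, 1 other assembly factor, 3 ribosomal genes and 0 electron carriers. Of 73 ribosomal genes, 14 fell and 1 rose with the luminal score, 13 fell with the beta-actin ratio, and 3 rose and 1 fell with the adipocyte score. Of 31 other assembly factors, 4 fell and 1 rose with the luminal score, 3 fell with the ratio and 0 rose with the adipocyte score. Of 13 electron carriers, 6 and 4 fell with the first 2 measures and 7 rose with the third. Of all probe sets, 10.9% fell with the luminal score, 8.12% fell with the ratio and 11.8% rose with the adipocyte score. Of the 14 citrate cycle genes, 10 fell with the luminal score and 10 rose with the adipocyte score. Of 13 regulators of mitochondrial genes, limma called 1 in day 3 minus day 1, beside 0.403% of all probe sets higher and 0.721% lower. It was the estrogen-related receptor Esrrg, which was higher by 0.53 (SE 0.13, adjusted p = 0.0346). No member was called in that pair of days, and a link between Esrrg and the members was not tested.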

How the data were processed

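RNA of 32 rat mammary glands was hybridised to 1 array each, and the array of 40 h, which the study discarded, was left out. The deposited intensity values are linear and were made by the authors with GC-RMA, a background correction by probe sequence with normalization across arrays. The submitters' processing notes call it GCRMA, and its version is not given in the sources used here. The normalization makes array medians alike, so that a shift common to all transcripts would not be seen. Of 31099 probe sets, 57 controls were left out, and 21068 with an intensity of 10 or more on all 31 arrays were tested. Log2 intensities were fitted with limma 3.58.1 in R 4.3.3 (lmFit and eBayes), with day as a factor and clock hour centred at 12.5 h, and p-values were adjusted over all probe sets tested (Benjamini-Hochberg). The spline method followed the study, with a spline of order 2 and its permuted time order as the null. Score genes needed a mean log2 intensity of 6 or more. No slide or scan batch is given, and 1 array per time point limits the precision. The scripts, in Python 3.11.15 as well, were tested on simulated data. Members and lists were chosen with earlier results of these data known. Named members are the 4 with the smallest p in each comparison, or up to 8 each way where any passed, tissue forms, core subunits, assembly factors and the inhibitor, and others were named after their values were seen. The fits with the luminal, adipocyte and beta-actin measures were added after seeing the data. Alternatives covered the filter, normalization, probe set per gene, covariates, shape of the time course, array weights, spline order, false discovery rate and leaving out each rat. Symbols come from the platform annotation, and all 85 members matched the GRCr8 gene table by Entrez identifier.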

Additional observations from a re-analysis of the deposited data

Results flagged for a closer look

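Within a day, 4 of 140 sets of values had 1 rat far from the others, and chance gives about 1 in 20. The measure is the gap of the farthest rat to its neighbour over the whole range of the day, set against Dixon's critical value for 7 or 8 rats. For the beta-actin log2 ratio on day 1 it was 0.617, with the rat of 7.5 h highest, at 2.10. For Cox5a on day 1 it was 0.532, with the rat of 17.6 h highest, at an intensity of 66.1. The rat of 86.3 h was highest on day 4 for both Atp5f1b, with 0.708 and an intensity of 6607, and Cox8a, with 0.667.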

How the results depend on the processing

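The counts of members called with clock hour, muscle score and each pair of days stayed at 0 without any 1 of the 31 rats. Of 2807 alternative values, 19 were stronger and 24 weaker than in the main fits. Most of the comparison is of counts and medians, and a change of sign was looked for only in the estimates of named members, where none occurred. In day 3 minus day 1, 1 member became higher with muscle, adipocyte, luminal and lymphocyte scores as covariates (Cox6b2). With the beta-actin ratio 2 became higher (Uqcrc2 and Cox6b2). With luminal and adipocyte scores and that ratio it was also 2, and there any difference between days gave 1. The share of all probe sets called in these fits is not given here, and in the main fit 0.403% were higher. The adjusted p over the alternatives ran between 0.033 and 0.1997 for Uqcrc2, between 0.0116 and 0.2405 for Cox6b2 and between 0.0749 and 0.4383 for Cox7c. The spline method called 0 members at a false discovery rate of 0.05 and 1 with order 3. Leaving out 1 rat gave between 1 and 7, with 1 without the rat of 16, 43, 57, 59.8 or 83.9 h, 5 without 34.5, 79.3 or 86.3 h, 6 without 7.5 h and 7 without 38.3 or 41.6 h. With arrays centred on their median, 32 members fell and 1 rose with the luminal score. With the 3 measures in 1 fit, 0 fell with the luminal score, 2 rose and 0 fell with the adipocyte score, and 1 fell with the beta-actin ratio. Leaving out 1 rat gave between 30 and 60 members lower with the luminal score, between 19 and 40 higher and 0 or 1 lower with the adipocyte score (0 without 7.5, 13.2, 17.6, 59.8, 61.3 or 62.5 h), and between 13 and 51 lower and 0 or 1 higher with the beta-actin ratio (1 without 7.5 or 86.3 h). The cause was not tested. No paired analysis was possible because each time point has 1 rat and the labels pair none. Signal over background limits the dim members Cox6c-ps1, Cox5a and Cox6b2 most, and a member that changes by less than its interval would not be detected with 7 or 8 rats a day.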

Other observations

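The array of 40 h, which is in no comparison, had a members' mean of 0.0014 on the log2 scale relative to the 31 rats, whose own values ran between -0.25 and 0.22. Of the 85 members, 1 lay above the highest of the 31 rats and 0 lay below the lowest. Its muscle score was 3.26, above the highest of the other rats, and its luminal and adipocyte scores were -0.06 and 0.24. The array median was 50.7.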
